A study of Macaca mulatta with 4 samples.

Results

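The genes described are members of the BCL2 family of cell death regulators together with CASP8, which encodes the initiator caspase of death receptors. Each of 10 symbols was looked up in the table of counts per macaque gene by its Ensembl identifier, and 7 had a row among the 21314 genes of the table, each with a single identifier. These were BCL2L1, BCL2L10, BAX, BCL2L11, BID, BCL2L14 and CASP8. No row matched MCL1, BAK1 or PMAIP1, and they were not analysed here. RNA had been sequenced from rhesus macaque (Macaca mulatta) morulae, the compacting ball of cells that precedes the blastocyst. There were 2 libraries of AG morulae and 2 of GG morulae, and the series describes its embryos as androgenetic, carrying paternal nuclear genomes only, and gynogenetic, carrying maternal nuclear genomes only. No further treatment, genotype or age is given for either group, no biparental embryos are among the libraries analysed, and the number of embryos behind each library is not clear from the labels. The labels do not tie replicates to separate animals, and p-values then reflect only how far these libraries differ, part of which may be technical.

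In the mitochondrial route to cell death, the pore proteins BAX and BAK1 permeabilise the outer mitochondrial membrane and release cytochrome c. Anti-death relatives such as BCL2L1, MCL1 and BCL2L10 hold the pore proteins in check, and short proteins that share only the BH3 domain with the family, among them BCL2L11, PMAIP1 and BID, release that hold or activate the pore directly. CASP8 is activated at death receptors on the cell surface and can cut BID, which links the death receptor route to the mitochondrial one. Preimplantation embryos are known to express genes of both routes, and cell death is common in them, mainly at the blastocyst stage.

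Total estimated counts ran from 14129608 to 29733977 per library, with both AG libraries below both GG libraries. Levels below are in CPM, counts scaled for sequencing depth after TMM adjustment of the library totals, and 3 counts in a library correspond to 0.102 to 0.214 CPM. Replicates differed by a median of 1.38-fold across genes in AG and 1.22-fold in GG. Marker lists of embryonic and other cell types were then read in each library. They are lists of cell types and not of stages. The labelled stage was therefore not tested, nor was whether both groups were at the same stage. Of 9 markers of pluripotent cells, 7 had a row. Their summed level was 544 and 690 CPM in AG against 774 and 755 CPM in GG, with POU5F1 the largest part in every library. These markers went in opposite directions. KLF17, DPPA4 and SALL4 were lower in both GG libraries, POU5F1, TFCP2L1 and ESRRB were higher, and NANOG overlapped. The 6 matched trophectoderm markers summed to 148 and 125 CPM in AG against 392 and 776 CPM in GG. KRT18, S100P, CLDN4 and GATA2 were higher in both GG libraries, while GATA3 overlapped. TFAP2C was lower in GG, at 104 and 110 CPM in AG against 48.1 and 61.7 CPM in GG. The 5 matched primitive endoderm markers summed to 134 and 193 CPM in AG against 193 and 187 CPM in GG. PDGFRA, the largest part of that sum, was at 116 and 154 CPM in AG against 115 and 93.3 CPM in GG. LAMB1 and APOA1 were higher in both GG libraries, and GATA4 and GATA6 overlapped. Cumulus cell markers (4 of 8 matched, FSHR at 0 counts) summed to at most 1.09 CPM, and sperm markers (6 of 7 matched, PRM2 and ODF1 at 0 counts) to at most 1.21 CPM. The 6 matched blood cell markers summed to 154 and 67.0 CPM in AG against 9.40 and 8.46 CPM in GG. PTPRC gave 141 and 65.9 CPM of the AG sums and 6.46 and 3.44 CPM of the GG sums. CD14 stood at 9.69 and 0.609 CPM in AG against 2.47 and 2.93 CPM in GG, and HBA1 at 3.49 and 0.457 against 0.475 and 1.33 CPM. CD3E had at most 1 count in a library, and CD68 and ITGAM had counts only in GG replicate 2 (16 and 6). The difference between groups in the trophectoderm sum and in PTPRC ran alongside the results below, and their part in those results was not tested. RNA of whole embryos was measured, so fewer cells of a type and less RNA per cell cannot be told apart.

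The members did not move as a block. BCL2L14 and CASP8, both close to 0 in AG morulae, rose in GG, while the BH3-only gene BCL2L11 fell in GG. BID, BCL2L10 and BAX stood higher in both GG libraries than in both AG libraries without passing the test over all genes, and BCL2L1 overlapped between the groups. Of the 7 members tested with edgeR's quasi-likelihood test, 3 were called at a Benjamini-Hochberg adjusted p under 0.05, against 12.9% of all 13227 genes tested (6.34% called higher in GG and 6.58% called higher in AG). In 6 of the 7 members the groups did not overlap, as in 64.1% of all tested genes. GG lay above AG in 5 members (33.4% of all genes) and AG above GG in 1 (30.7%). The median log2 fold change over the members was 3.22, and it was 0.04 over all tested genes. The members were chosen with earlier results of these data known. In addition, BCL2L14 and CASP8 passed the filter on low counts through the GG libraries alone. Their presence among the tested genes thus already depended on a difference. For these reasons, these counts and the median describe the members without supporting a statement about the family.

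**Figure D1:**
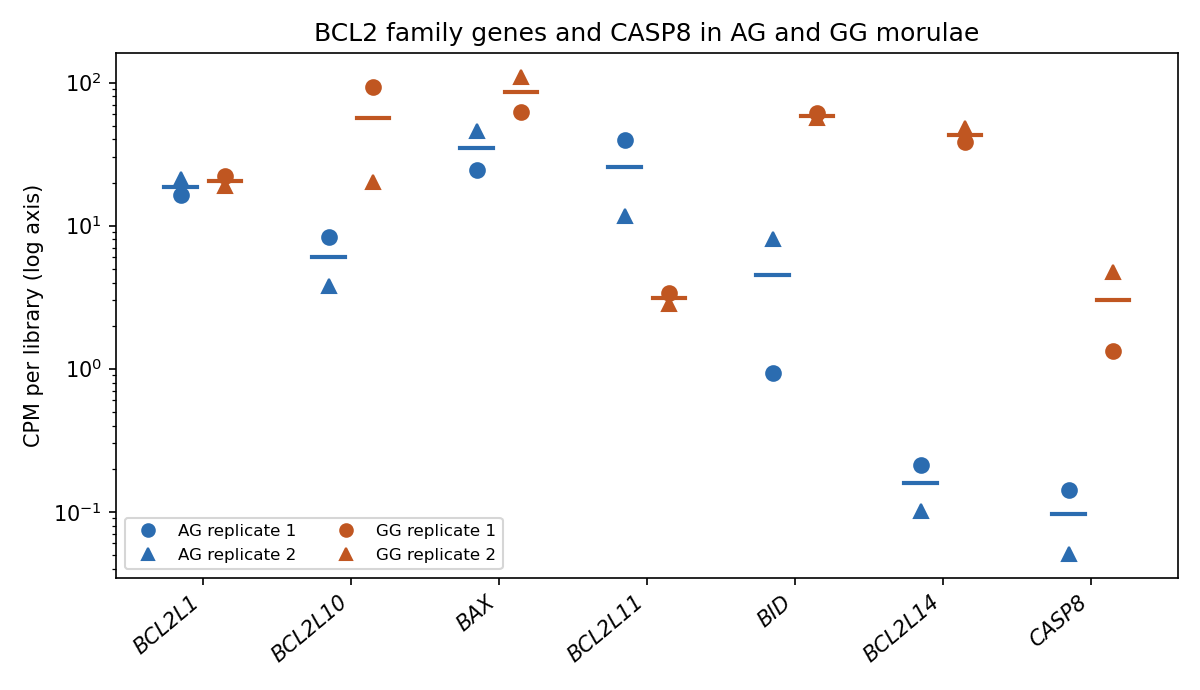
Level of each matched member in every library, in CPM on a log axis, with AG in blue and GG in orange, circles for replicate 1, triangles for replicate 2 and bars for group means. BCL2L1 overlaps between the groups, BCL2L11 is higher in both AG libraries, and the other 5 members are higher in both GG libraries.

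Among the anti-death members, BCL2L1 (ENSMMUG00000005985), which encodes BCL-XL, stood at 16.2 and 21.1 CPM in AG replicates 1 and 2 and at 22.3 and 19.0 CPM in GG replicates 1 and 2. The groups overlapped, since GG replicate 2 lay below AG replicate 2. The log2 fold change of GG over AG was 0.14 ± 0.36 (SE), with a 95% interval from -0.74 to 1.02 (edgeR, adjusted p = 0.819). The missed threshold does not show equal levels, since changes in either direction inside that interval remain possible.

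BCL2L10 (ENSMMUG00000017372), an anti-death relative known for its high expression in oocytes, had 8.26 and 3.81 CPM in AG replicates 1 and 2 and 92.3 and 20.2 CPM in GG replicates 1 and 2. Both GG libraries were above both AG libraries, but they also differed from each other by 4.58-fold. The AG mean of 6.04 ± 3.15 CPM and the GG mean of 56.2 ± 51.0 CPM (SD, n = 2) did not differ past the threshold (log2 fold change 3.22 ± 0.84 SE, edgeR adjusted p = 0.0585). Without GG replicate 1, the library with the highest value, the log2 fold change was 1.75 (adjusted p = 0.309), and without GG replicate 2 it was 3.90 (adjusted p = 0.0893). DESeq2 called the gene (adjusted p = 0.000180), as did edgeR when no filter was applied (0.00791) or a mean of at least 10 CPM was required (0.0492).

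BAX (ENSMMUG00000003907), the matched pore member, stood at 24.3 and 45.7 CPM in AG replicates 1 and 2 and at 62.6 and 110 CPM in GG replicates 1 and 2. The groups did not overlap, though the lower GG library was only modestly above the higher AG library, and replicate 2 was the higher library in both groups. The log2 fold change was 1.30 ± 0.46 (SE; 95% interval 0.17 to 2.43) and was not called over all genes (edgeR adjusted p = 0.115). It passed without AG replicate 2 (log2 fold change 1.81, adjusted p = 0.0320) and with DESeq2 (adjusted p = 0.0412), and without GG replicate 2 the log2 fold change was 0.81 (adjusted p = 0.569).

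BCL2L11 (ENSMMUG00000018423), which encodes the BH3-only protein BIM, was the member called lower in GG. It had 39.6 and 11.7 CPM in AG replicates 1 and 2 and 3.37 and 2.83 CPM in GG replicates 1 and 2. AG replicate 1 stood 3.38-fold above AG replicate 2, and both were above the GG libraries, which differed by 1.19-fold. The AG mean of 25.7 ± 19.7 CPM compared with 3.10 ± 0.38 CPM for GG (SD, n = 2), a log2 fold change of -3.05 ± 0.68 (SE, edgeR adjusted p = 0.0436). Leaving out AG replicate 1 reduced the difference to -1.93 on the log2 scale with the call kept (adjusted p = 0.0472), and leaving out AG replicate 2 widened it to -3.70 (adjusted p = 0.00262). The call was lost without GG replicate 1 or 2 (adjusted p = 0.210 and 0.246), fits in which only the AG pair informed the spread and the lone GG library was assumed to vary like it.

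BID (ENSMMUG00000020799), the BH3-only protein that CASP8 cuts, had 13 and 159 counts in AG replicates 1 and 2, or 0.926 and 8.08 CPM, and 61.1 and 56.3 CPM in GG replicates 1 and 2. The GG libraries nearly coincided, and the AG libraries, both far below them, differed by 8.72-fold. The log2 fold change was 3.69 ± 0.94 (SE, 95% interval 1.35 to 6.02) and missed the threshold over all genes (edgeR adjusted p = 0.0569). With either AG library left out it passed, in fits where the lone AG library was assumed to vary like the GG pair and the spread between the AG libraries no longer entered. The log2 fold change was 2.85 without AG replicate 1 (adjusted p = 0.00759) and 5.96 without AG replicate 2 (adjusted p = 0.00127). BID was not called without GG replicate 1 or 2 (adjusted p = 0.200 and 0.201), and it was called by DESeq2 (4.0e-05), without a filter (0.00619) and with a minimum mean of 10 CPM (0.0432).

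BCL2L14 (ENSMMUG00000023315), which encodes the BCL2-like protein BCL-G, differed most among the members. It had 3 and 2 counts in AG replicates 1 and 2 and 810 and 1407 counts in GG replicates 1 and 2. Scaled, these were 0.214 and 0.102 CPM against 38.5 and 48.0 CPM, so the gene was at or near the floor of 3 counts in AG and at a moderate level in both GG libraries. The log2 fold change of 8.11 ± 0.56 (SE, edgeR adjusted p = 0.00488) placed it at rank 71 among the 13227 genes tested when ordered by rise in GG. It was called in 11 of 11 alternative analyses, with log2 fold changes from 7.61 to 8.65. With 5 counts in AG altogether, the size of the fold is much less certain than its direction.

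CASP8 (ENSMMUG00000031296) had 2 and 1 counts in AG replicates 1 and 2, after rounding, and 28 and 138 counts in GG replicates 1 and 2. These are 0.142 and 0.0508 CPM in AG, below the floor of 3 counts in each library, and 1.33 and 4.71 CPM in GG. Every GG value was above every AG value, and GG replicate 2 stood 3.54-fold above GG replicate 1. With 3 counts in AG against 166 in GG, the ratio of counts over scaled totals was 37.0, with an exact 95% counting interval from 12.5 to 181 that covers counting error only. The gene was called (log2 fold change 4.95 ± 1.12 SE, edgeR adjusted p = 0.0455), by a narrow margin. The adjusted p was 0.0573 and 0.0657 with AG replicate 1 or 2 left out and 0.123 and 0.374 with GG replicate 1 or 2 left out, so the call ended in each of these 4 fits. The deposited value of CASP8 was not a whole number in 3 of 4 libraries, as happens when reads are shared out between genes. Of all values in a library, genes without any count included, 30.0% to 32.2% were not whole. By the same measure BCL2L11 was not whole in 1 library and the other 5 members were whole in every library.

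**Figure D2:**
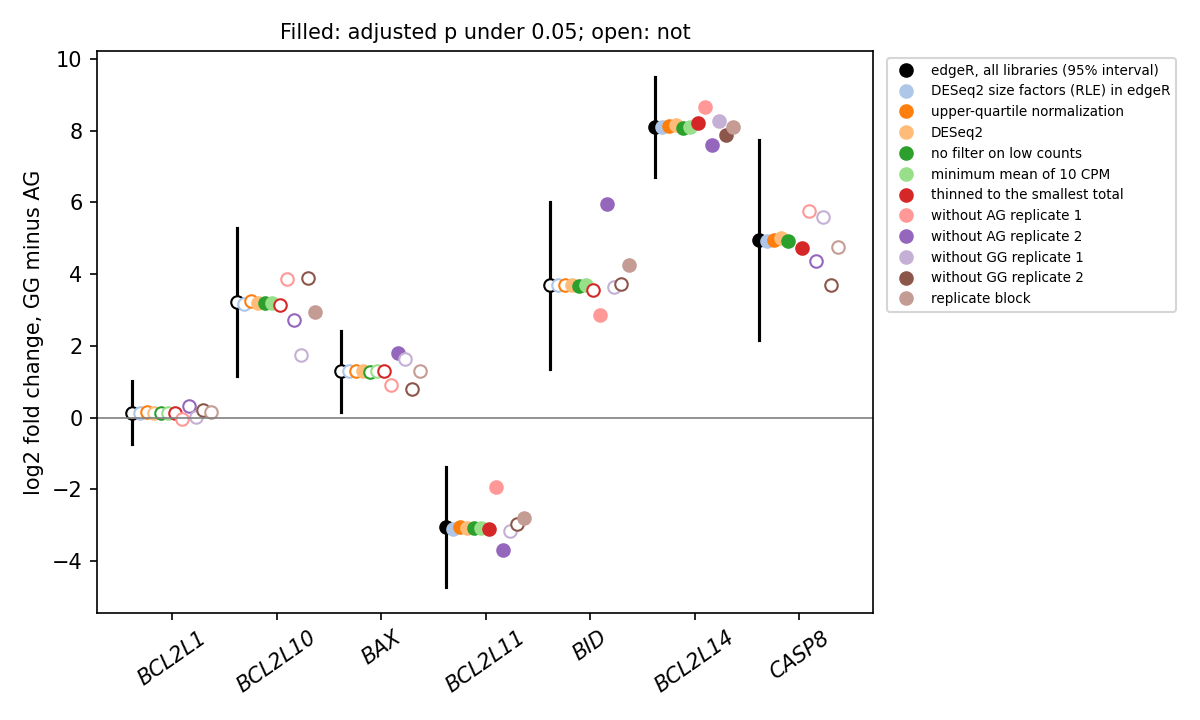
Log2 fold change of GG over AG for each member, with the black point and line giving the edgeR fit to all libraries and its 95% interval, and coloured points the alternative analyses. Filled points passed an adjusted p of 0.05. BCL2L14 is filled throughout at 7.61 to 8.65, BID spreads from 2.85 to 5.96 when an AG library is left out, and BCL2L1 stays near 0.

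The genes whose levels lay nearest to those of the called members were found by Euclidean distance of log2(CPM + 1) over the 4 libraries, among 10641 tested genes with a symbol. With 4 points, of which the AG values share a group and the GG values share a group, this is a description of levels only. For BCL2L14 they were RRAGD, a GTPase of amino acid sensing at the lysosome, ATP6V1B1, a subunit of the proton-pumping V-ATPase, and SCNN1A, a subunit of the epithelial sodium channel, at distances of 0.58, 0.63 and 0.76. SCNN1A had 0.142 and 0.609 CPM in AG replicates 1 and 2 and 26.5 and 49.0 CPM in GG replicates 1 and 2. Only 7 genes lay within a distance of 1 of BCL2L14. BCL2L11 was nearest to BBOF1, AGO4, an Argonaute protein of small RNA silencing, and AKAP5, a kinase anchoring protein, at 0.52, 0.57 and 0.59, with 15 genes within 1. AGO4 had 29.3 and 12.2 CPM in AG and 3.85 and 3.89 CPM in GG replicates 1 and 2, so that, as for BCL2L11, AG replicate 1 was the highest library. The low level of CASP8 was shared by 113 genes within 1, the nearest being SLCO2B1, an organic anion transporter, MEIS2, a homeobox factor, and MCEMP1.

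Of 14 other BCL2 family genes on the list, 8 had a row and 7 were tested. Of these 2 rose in GG, 0 fell and 5 were not called, with a median log2 fold change of 0.60. Among all tested genes, 12.9% were called in either direction. BCL2L15, a BCL2-like gene, stood at 43.2 and 24.3 CPM in AG replicates 1 and 2 and at 192 and 191 CPM in the GG libraries (log2 fold change 2.51 ± 0.36 SE, edgeR adjusted p = 0.0201). BNIP3, a mitochondrial protein of mitophagy that is induced by low oxygen, stood at 483 and 434 CPM in AG and at 1420 and 1415 CPM in GG (1.63 ± 0.21, adjusted p = 0.0162). In both genes the GG libraries nearly coincided and the groups were well apart. The calls of both were lost without either GG library (adjusted p = 0.112 to 0.127). The BH3-only gene BMF, chosen after its values were seen, had 0 counts in AG and 28 and 8 counts in GG, at least 8.03-fold higher in GG when set against 3 counts over the AG group, and was too low to be tested.

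In the death receptor pathway, 17 genes were listed, 12 had a row and 9 were tested. Of these 1 rose in GG, 0 fell and 8 were not called, with a median log2 fold change of -0.21. The share called was near the 12.9% of all tested genes. TNFRSF1A, the main receptor for tumour necrosis factor, stood at 2.64 and 1.63 CPM in AG replicates 1 and 2 and at 17.8 and 30.0 CPM in GG replicates 1 and 2 (3.49 ± 0.53 SE on the log2 scale, edgeR adjusted p = 0.0213; 0.0841 and 0.151 without GG replicate 1 and 2). TNFRSF10B, a receptor for the death ligand TRAIL, had 16.2 and 6.96 CPM in AG and 1.95 and 2.49 CPM in GG without passing (-2.37 ± 0.61, adjusted p = 0.0580), but passed without AG replicate 2 (0.0109), without a filter (0.0247) and with DESeq2 (0.00290). Without AG replicate 1 its log2 fold change was -1.65 (adjusted p = 0.103), and without GG replicate 1 or 2 the adjusted p was 0.303 and 0.267. CFLAR, the catalytically inactive relative that restrains CASP8, had 83.6 and 51.1 CPM in AG against 42.0 and 23.6 CPM in GG (-1.04 ± 0.43, adjusted p = 0.164), and passed without AG replicate 2 (log2 fold change -1.38, 0.0430) but not without AG replicate 1 (-0.65, 0.324). CFLAR and TNFRSF10B, neither of them called, were each lower in both GG libraries than in both AG libraries, as were 30.7% of all tested genes. CASP8 and TNFRSF1A lay on the opposite side, as did 33.4% of all tested genes. The groups did not overlap in 3 of the 9 tested genes of this list, against 64.1% of all tested genes.

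Of 18 caspase and apoptosome genes, 15 had a row and were tested. In GG 2 rose, 0 fell and 13 were not called, with a median log2 fold change of 0.68. The share called was near the 12.9% of all tested genes. CASP9, the initiator caspase of the mitochondrial route, stood at 31.9 and 28.4 CPM in AG and at 69.3 and 74.7 CPM in GG (1.26 ± 0.29 SE, edgeR adjusted p = 0.0468). Its call was narrow and ended with DESeq2-style size factors (0.0502) and without GG replicate 1 or 2 (0.286 and 0.351). AIFM1, a mitochondrial flavoprotein that can act in caspase-independent death, stood at 60.4 and 63.7 CPM in AG and at 244 and 305 CPM in GG (2.14 ± 0.26, adjusted p = 0.0143; 0.0913 and 0.135 without GG replicate 1 and 2). The apoptosome scaffold APAF1, chosen for its place in the pathway after values were seen, was at 43.4 and 26.7 CPM in AG against 12.6 and 19.9 CPM in GG (-1.11 ± 0.43, adjusted p = 0.142), and passed only without AG replicate 2 (0.0456; -0.72 and 0.272 without AG replicate 1).

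Regulators of the family's genes and proteins numbered 17, of which 16 had a row and 14 were tested. Of these 1 rose in GG, 3 fell and 10 were not called, with a median log2 fold change of -0.06. Among all tested genes, 12.9% were called in either direction. DDIT3, which encodes the stress factor CHOP, a known activator of BCL2L11, stood at 491 and 325 CPM in AG replicates 1 and 2 and at 13.2 and 21.3 CPM in GG replicates 1 and 2 (log2 fold change -4.56 ± 0.41 SE, edgeR adjusted p = 0.00792). FOXO3, another known activator of BCL2L11, had 23.3 and 35.2 CPM in AG against 7.12 and 9.41 CPM in GG (-1.82 ± 0.41, adjusted p = 0.0445). FOXO1, of the same list and chosen after values were seen, stood higher in both GG libraries. It had 33.8 and 49.5 CPM in AG against 60.8 and 53.8 CPM in GG without being called (0.46 ± 0.33, edgeR adjusted p = 0.385). Any part of DDIT3, FOXO3 or FOXO1 in the BCL2L11 difference was not tested. MYC, a growth-promoting transcription factor that can sensitise cells to death, had 49.2 and 50.6 CPM in AG against 12.7 and 6.51 CPM in GG (-2.38 ± 0.44, adjusted p = 0.0299). USP9X, a deubiquitinase that stabilises the MCL1 protein, stood at 72.7 and 56.3 CPM in AG and at 170 and 139 CPM in GG (1.26 ± 0.29, adjusted p = 0.0457), and its call ended with DESeq2-style size factors (0.0505). Without GG replicate 1 or 2, DDIT3 kept its call (adjusted p = 0.0493 and 0.0448), and FOXO3, MYC and USP9X lost theirs (adjusted p = 0.118 to 0.319).

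**Figure D3:**
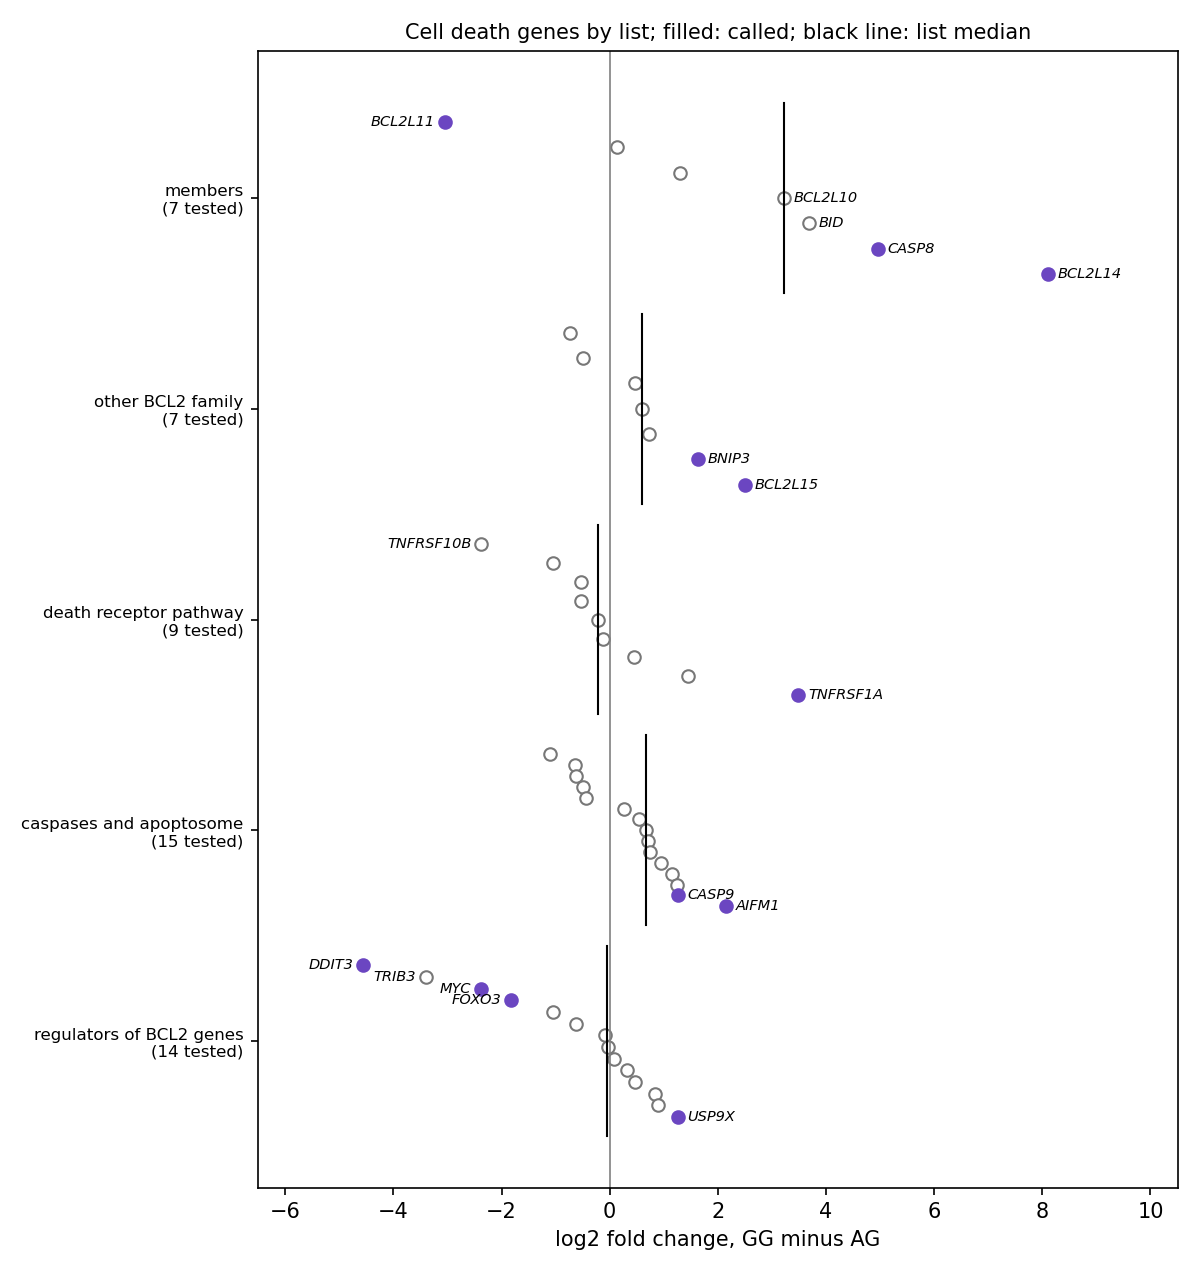
Log2 fold change of GG over AG for every tested gene of each list, with filled points for called genes and a black line at the list median. Most pathway genes lie within 2 log2 units of 0, and BCL2L14 at 8.11 and DDIT3 at -4.56 lie farthest out in each direction.

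Genes next to the members on the chromosome were read from the order of protein-coding genes in RefSeq's table of assembly T2T-MMU8v2.0, which is not the build named for the counts, so no coordinates are given. This comparison was added after values were seen. BCL2L10 lies between MAPK6, a MAP kinase, and GNB5, a G protein subunit, and both neighbours fell in GG while BCL2L10 stood higher there. MAPK6 had 421 and 463 CPM in AG against 71.0 and 76.7 CPM in GG (-2.58 ± 0.24 SE on the log2 scale, edgeR adjusted p = 0.00821), and GNB5 had 62.9 and 27.8 CPM in AG against 1.14 and 0.546 CPM in GG (-5.76 ± 0.68, adjusted p = 0.0133). Both calls were lost without GG replicate 1 or 2 (adjusted p = 0.0653 to 0.0951). TPX2, a spindle assembly factor beside BCL2L1, fell too, from 523 and 417 CPM in AG to 181 and 157 CPM in GG (-1.47 ± 0.25, adjusted p = 0.0262; 0.176 and 0.222 without GG replicate 1 and 2), while BCL2L1 overlapped between the groups.

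CASP8 lies beside CASP10, a caspase that arose by duplication in the same cluster, with CFLAR next along. CASP10 had 7 and 0 counts in AG replicates 1 and 2 and 22 and 8 counts in GG replicates 1 and 2, and the groups overlapped (log2 fold change 1.45 ± 1.56 SE, edgeR adjusted p = 0.569). On the other side, FLACC1 had 2.99 and 1.32 CPM in AG against 0.475 and 0 CPM in GG without passing (-3.21 ± 1.52, adjusted p = 0.210). Of these 4 genes only CASP8 was called with all libraries, and whether its change differed from that of its neighbours was not tested. BCL2L14 lies between ETV6, a transcriptional repressor, and LRP6, a WNT co-receptor. ETV6 was low in every library, at 0.0712 and 0.152 CPM in AG and 0.855 and 1.70 CPM in GG (3.41 ± 0.97, adjusted p = 0.0723), and LRP6 was at 9.12 and 12.0 CPM in AG and 9.45 and 9.85 CPM in GG (-0.13 ± 0.42, adjusted p = 0.858). BID lies beside its relative BCL2L13, a mitochondrial receptor of mitophagy, which had 58.6 and 46.2 CPM in AG against 32.6 and 30.7 CPM in GG without passing (-0.73 ± 0.31, adjusted p = 0.171). The neighbours with a row beside BAX (DHDH and FTL) and beside BCL2L11 (ANAPC1) did not pass either, and their log2 fold changes were 0.39, -0.11 and 0.92 (adjusted p = 0.555, 0.773 and 0.102). Among the second genes along that had a row, only ATP6V1E1 near BID and ID1 near BCL2L1 were called, both lower in GG. ATP6V1E1 had 1073 and 1103 CPM in AG against 455 and 373 CPM in GG (edgeR adjusted p = 0.0240). ID1 had 150 and 33.0 CPM in AG against 6.03 and 5.59 CPM in GG (adjusted p = 0.0333).

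**Figure D4:**
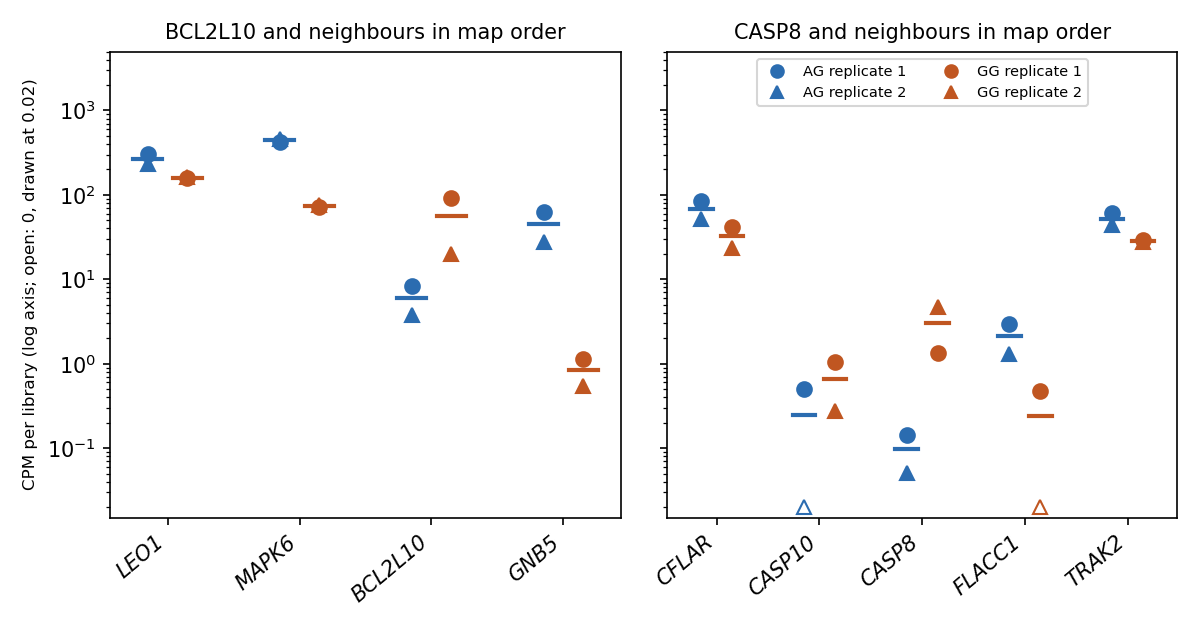
CPM per library on a log axis for BCL2L10 and CASP8 with the genes that flank them, in map order, AG in blue and GG in orange, bars for group means and open symbols for 0 counts. MAPK6 and GNB5 are lower in both GG libraries while BCL2L10 between them is higher, and CASP8 is higher in both GG libraries while FLACC1 and CFLAR are lower.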

How the data were processed

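The authors deposited estimated counts per Ensembl gene, unscaled, for 4 libraries. Trim Galore, STAR 2.6.0c, Salmon 0.12.0 and the build rheMac8 are listed, per the submitters' processing notes, with no role or order. The annotation release and strand setting are not stated. Such estimates divide reads among similar transcripts. Symbols were matched for 14654 of 21314 genes (68.8%). Counts were rounded and tested with edgeR 4.0.16 in R 4.3.3 (filterByExpr by group, minimum count 10 and minimum total 15, TMM, quasi-likelihood F test, group as the sole term, Benjamini-Hochberg adjustment over all tested genes). Standard errors are those implied by F. Means are given ± SD over 2 libraries. Without molecular identifiers in the labels, reads are not independent molecules, and counting intervals reflect counting error alone.

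The members and the gene lists were chosen with earlier results of these data known. All members are named, with every called gene of each pathway list, the 2 uncalled genes with the smallest p where fewer than 2 were called, and the 3 nearest genes by level of each called member. Other names are stated as chosen after values were seen, except for markers of cell types, which were named from their lists with values known. Alternatives were 2 other normalizations, DESeq2 1.42.0, 2 other filters, thinning, leaving out each library, and a replicate block. Where 1 library of a group is left out, the remaining one is assumed to vary like the other group's pair. Other members of the pathway lists are counted but not named.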

Additional observations from a re-analysis of the deposited data

How the results depend on the processing

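Over all genes, 1709 were called with edgeR, 3339 with DESeq2 and 2609 without a filter on low counts, and 84 to 3786 when 1 library was left out. Of the 7 members, 3 were called, against 6 with DESeq2 and 5 without a filter, and 1 to 4 when 1 library was left out. BCL2L10, BID and BAX gained a call with DESeq2 (log2 fold changes 3.19, 3.70 and 1.30), BCL2L10 and BID also without a filter (3.20 and 3.67) and with a minimum mean of 10 CPM (3.20 and 3.69), a setting in which CASP8 is not tested. Leaving out 1 library moved the log2 fold change from -0.042 to 0.32 for BCL2L1, reversed without AG replicate 1, from 1.75 to 3.90 for BCL2L10, 0.81 to 1.81 for BAX, -3.70 to -1.93 for BCL2L11, 2.85 to 5.96 for BID, 7.61 to 8.65 for BCL2L14 and 3.71 to 5.75 for CASP8. The cause of these changes was not tested, except that leaving out a library of a group leaves the spread to the other group's pair. Among other named genes, none of them called, the sign changed for DHDH without GG replicate 1 (range -0.28 to 0.82 when 1 library was left out), FTL without AG replicate 1 (-0.24 to 0.0065) and LRP6 without AG replicate 2 (-0.33 to 0.064).

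AG and GG libraries share replicate numbers, but nothing in the labels says that a number marks a shared animal or day, and with 2 pairs the correlation of same-numbered deviations (0.108) does not settle it. With the replicate block, 1697 genes were called. BCL2L10 and BID passed (log2 fold changes 2.95 and 4.25, adjusted p = 0.0212 and 0.0376), CASP8 did not (4.75, adjusted p = 0.0642), nor did CASP9 (adjusted p = 0.0616), and no other member changed its call. In AG, CASP8 and BCL2L14 rest on 3 and 5 counts, which limits the size of their folds.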
